A study of Mus musculus with 8 samples.

Results

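The genes described here are 40 genes of the mouse germ line that act in meiosis, in germ cell regulation or in the piRNA pathway. They were chosen by name, with earlier results of these data known. Each of the 40 symbols matched 1 of the 36920 genes of the count table by its Ensembl identifier. RNA was sequenced from the R1 line of mouse embryonic stem cells, kept in serum with LIF in all groups, in 8 libraries that form 4 groups of 2. D3 and D10 are labelled ML-792 and closed the first and the second 48 h exposure to ML-792, which blocks the enzyme that activates SUMO, with 2.5 mM given in the labels as its dose. The control label is on D1 and D8, which came just before each exposure, so D8 cells are placed 5 days after the close of the first one. No library of D3 or D10 without ML-792 is among those labelled, so the inhibitor and 48 h of further culture cannot be told apart. For D1 replicate 2 the title says D1 but the time label says day 0, and the title was followed. Whether libraries of the same group came from different cultures is not stated, so their scatter, and with it every p-value, may be only technical.

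Germ cells repair programmed DNA breaks while homologous chromosomes are held together by the synaptonemal complex and by meiotic cohesin, and they silence transposons with piRNAs, small RNAs bound by PIWI proteins. Embryonic stem cells keep many of these genes low. DNA methylation, the histone methyltransferase SETDB1 and the noncanonical Polycomb complex PRC1.6, which reaches DNA through E2F6 and through MGA with MAX, are known to take part in that repression. Several of these repressors are known to be modified by, or to bind, SUMO.

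The libraries held 21040992 to 40835518 reads in genes. Levels are given in CPM, read counts scaled to the depth of the library after TMM scaling, which evens out differences in library composition. Of 10 embryonic stem cell markers, none was at 0 in any library, and their summed level was 4352 to 4434 CPM at D3, against 5272 to 5695 CPM at D1, and 3513 to 3823 CPM at D10, against 5271 to 5332 CPM at D8. Pou5f1, the pluripotency factor OCT4, averaged 891.2 CPM at D3, against 1225 CPM at D1. Of 8 fibroblast markers, 1 to 5 were at 0 reads in 7 of the libraries and 0 in D10 replicate 1, with a summed level of 4.90 to 12.8 CPM. D8 replicate 2 stood apart. Over 12690 coding genes, GC content and this library's departure from the average library had a Spearman rho of 0.590, and D8 replicate 1 had 0.0954. The values were -0.342 and -0.314 at D3, against -0.118 and 0.108 at D1, and -0.378 and 0.0303 at D10. In each exposure both ML-792 libraries thus lay below both control libraries in this GC trend.

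Most of the germline genes had reads in these cells. In all, 37 of the 40 reached 1 CPM in at least 2 libraries. Per length of merged exons, the mean level over all libraries was highest for Tex19.1, which guards germ cells against retrotransposons, at 39.8 CPM per kilobase. It was followed by the synaptonemal complex gene Syce2 at 24.9, the meiotic cohesin gene Stag3 at 18.9, the RNA-binding protein gene Dazl at 18 and the synaptonemal complex gene Syce1 at 17.7 CPM per kilobase. Tex19.1 has a close paralog, Tex19.2, so its reads are less certain. At the other end, Spo11, the enzyme gene that makes meiotic DNA breaks, had 2 reads in D3 replicate 1, 1 read in D10 replicate 2 and 0 in the other 6 libraries, where a count of 0 allows a level of up to 0.0932 to 0.143 CPM for counting error alone. The crossover factor gene Rnf212 had 1 to 7 reads in each library, and Tdrd6, a Tudor-domain gene of the male germ cell, had 3 to 20. Spo11 and Rnf212 were too low to be tested, which left 38 genes.

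Across each ML-792 exposure these genes did not move in 1 direction. At the end of the first exposure 6 of the 38 tested genes were higher than at D1 and 4 were lower, and 28 did not pass. At the end of the second, 9 were higher than at D8 and 4 were lower, and 25 did not pass. Genes were called by edgeR's quasi-likelihood test at a Benjamini-Hochberg adjusted p under 0.05 over all 19173 tested genes. Of those, 13.0% were called between D3 and D1 (7.92% higher and 5.10% lower) and 16.9% between D10 and D8 (9.27% higher and 7.65% lower), so the 26.3% and 34.2% of the germline genes called stand beside a background that is itself large. Since the list was chosen with earlier results known, these shares cannot show that germline genes respond more often than others. The median log2 fold change of the 38 genes was 0.07 at the first exposure and 0.24 at the second, beside 0.00 and 0.03 over all tested genes.

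The first count rests on each of its 4 libraries. Leaving out D1 replicate 1 gave 0 calls, leaving out D1 replicate 2 gave 2, leaving out D3 replicate 1 gave 2 and leaving out D3 replicate 2 gave 3, and over all genes the share called was then 1.91% to 5.58%. Leaving out D10 replicate 1 gave 6 calls at the second exposure, all higher, against 13 with it. Without D8 replicate 2, the rises called at the second exposure were larger for Mael (2.12), Tdrd6 (2.15), Tdrd9 (1.30) and Taf7l (1.29) on the log2 scale. Those of Sycp1 (1.59), Brdt (1.64), Dazl (1.39), Hormad1 (0.65) and Meioc (0.65) were smaller. Leaving out a library also weakens the test, so lost calls do not show which libraries the balance of rises over falls rests on.

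Over all tested genes, fold changes fell as GC content rose (Spearman rho -0.222 at the first exposure and -0.355 at the second), where genes are not independent replicates. Over the 38 genes rho was -0.24 and -0.103, and whether these values differ from 0 was not tested. With offsets that remove each library's trend with GC content and length, the first exposure had 4 higher and 10 lower and the second 6 higher and 12 lower, while the median of all genes lay at -0.12 in each. At the first exposure the offsets also raised the share of all tested genes called, from 13.0% to 23.3%. For the second exposure that share is not given here, so its offset counts lack a background from the same fit. The part of GC content in the fold changes was not tested beyond these offsets.

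In all, 7 genes passed in the same direction at both exposures, which share no library. Sycp1, Brdt, Mael and Dazl were called higher in both, Syce2, Hormad2 and Piwil4 lower in both, and none in opposite directions. Over the 38 genes the log2 fold changes of both exposures correlated at r = 0.707, across genes that share their libraries. The share of all tested genes called alike at both exposures, and their correlation, are not given here. The 7 genes and the r value therefore do not set the germline genes apart from other genes. With 2 libraries a group, groups can also lie apart by chance alone, and the share of all genes without overlap is not given.

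**Figure D1:**
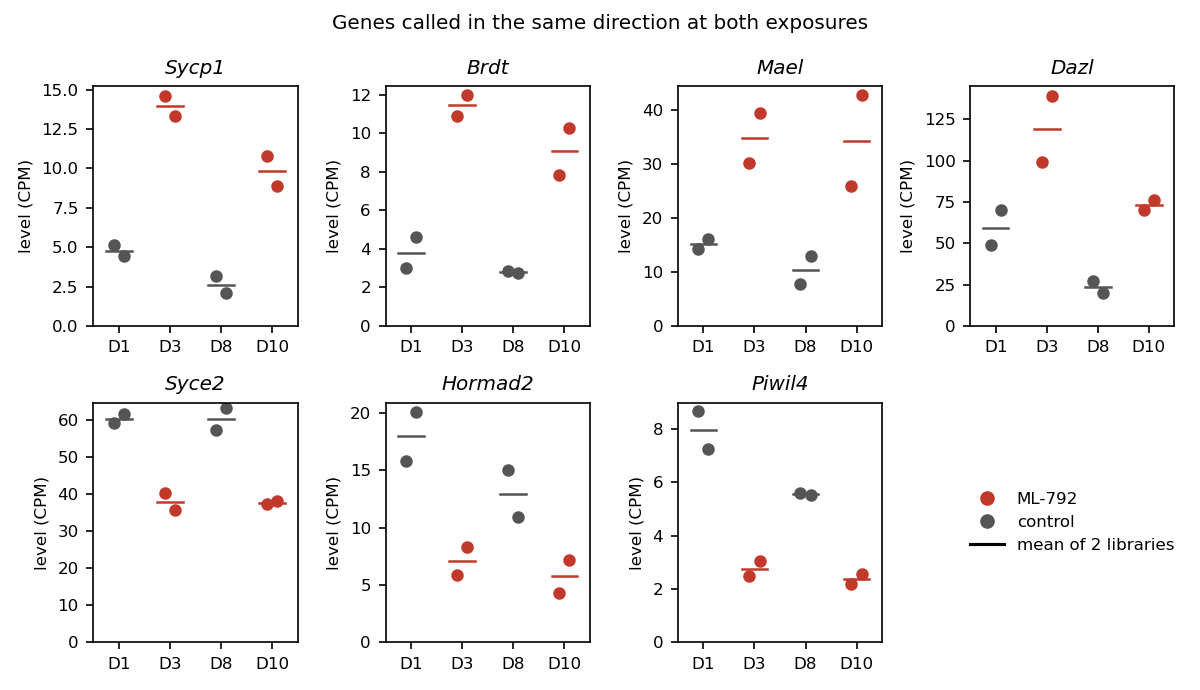
Level in CPM (vertical axis, from 0) of the 7 genes called in the same direction at both exposures, in each of the 8 libraries by day (horizontal axis). Points are libraries, red for ML-792 and grey for control, and bars are means of 2. In each panel every ML-792 library lies on one side of every control library of its exposure. The genes were picked by their calls, so that separation follows largely from the choice.

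Sycp1 encodes the transverse filament of the synaptonemal complex. It stood at 14.6 and 13.3 CPM at D3, against 5.12 and 4.44 CPM at D1, and at 10.8 and 8.86 CPM at D10, against 3.17 and 2.06 CPM at D8. All 4 ML-792 libraries were above all 4 control libraries. The log2 fold change was 1.55 ± 0.26 (SE, adjusted p = 0.0076) at the first exposure and 1.91 ± 0.26 (adjusted p = 0.0031) at the second. Brdt, the testis member of the BET bromodomain family, had 10.9 and 12.0 CPM at D3, against 3.01 and 4.6 CPM at D1, and 7.86 and 10.3 CPM at D10, against 2.85 and 2.77 CPM at D8. Again no control library reached an ML-792 library, and the log2 fold changes were 1.58 ± 0.27 (adjusted p = 0.0081) and 1.69 ± 0.27 (adjusted p = 0.0053).

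Mael, a piRNA pathway gene needed for transposon silencing, had 30.2 and 39.4 CPM at D3, against 14.2 and 16.1 CPM at D1, and 26.0 and 42.7 CPM at D10, against 7.72 and 13.0 CPM at D8. Dazl, an RNA-binding translational regulator that germ cells need to form, had 99.2 and 139.2 CPM at D3, against 49.0 and 69.9 CPM at D1, and 70.4 and 76.3 CPM at D10, against 27.3 and 19.8 CPM at D8. For both genes the groups of each exposure did not overlap. Mael rose by 1.2 ± 0.30 on the log2 scale (adjusted p = 0.035) and then by 1.73 ± 0.31 (adjusted p = 0.0081), and Dazl by 1.0 ± 0.23 (adjusted p = 0.026) and by 1.64 ± 0.24 (adjusted p = 0.0038). With the offsets for GC content and length, the first response of Dazl was 0.54 ± 0.29 and that of Mael 0.96 ± 0.32, and neither passed (adjusted p = 0.20 and 0.056). At the second exposure all 4 genes passed whichever of the 8 libraries was left out. At the first exposure Brdt passed in 7 of them, Sycp1 and Dazl in 5 and Mael in 4.

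Among the falls, Piwil4, which carries piRNAs into the nucleus of fetal male germ cells, had 2.48 and 3.03 CPM at D3, against 8.66 and 7.24 CPM at D1, and 2.19 and 2.57 CPM at D10, against 5.59 and 5.53 CPM at D8. Hormad2, a HORMA-domain protein of unpaired chromosome axes, had 5.89 and 8.29 CPM at D3, against 15.8 and 20.1 CPM at D1, and 4.34 and 7.20 CPM at D10, against 15 and 10.9 CPM at D8. For each of them all 4 ML-792 libraries lay below all 4 control libraries. The log2 fold changes were -1.52 ± 0.25 (adjusted p = 0.0071) and -1.22 ± 0.25 (0.013) for Piwil4, and -1.34 ± 0.31 (0.024) and -1.15 ± 0.30 (0.034) for Hormad2. Syce2, of the central element of the synaptonemal complex, had 40.3 and 35.6 CPM at D3, against 59.2 and 61.5 CPM at D1, and 37.3 and 38.0 CPM at D10, against 57.3 and 63.3 CPM at D8. Its responses were small and alike, -0.67 ± 0.13 (adjusted p = 0.014) and -0.68 ± 0.13 (0.011), with no overlap between ML-792 and control libraries. With the offsets, these 3 genes kept both calls, at -1.68 and -1.34 for Piwil4, -1.62 and -1.53 for Hormad2, and -0.79 and -0.87 for Syce2. At the first exposure Piwil4 missed the threshold without D1 replicate 1 or D3 replicate 1 (adjusted p 0.051 and 0.071), while Hormad2 (0.058 to 0.17) and Syce2 (0.066 to 0.12) did so without any 1 of the 4 libraries. At the second, each missed it without D10 replicate 1 (0.071 to 0.17), and Hormad2 also without D8 replicate 1 (0.092) or D1 replicate 2 (0.055). Piwil4 shares 137 exonic bases (2.5% of its exon length) with the antisense gene Gm10706, and the strand setting of the counting is not given in the sources used here.

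Promoter windows of the 4 genes that rose at both exposures and of the pair with the largest falls at both are printed to show the letters in front of genes that moved together. Each runs from 250 bases before to 50 after a RefSeq start site, on the gene's strand, from RefSeq on GRCm38.p6, the same build as mm10. Capitals mark CACGTG, an E-box of the kind that MGA with MAX binds, and TCCCGC or its reverse complement GCGGGA, a site of the kind that E2F6 binds. The windows lie at chr3:102936051-102936350 (minus strand) for Sycp1, chr5:107330944-107331243 (plus) for Brdt, chr1:166238695-166238994 (minus) for Mael, chr17:50293571-50293870 (minus) for Dazl, chr9:14740623-14740922 (minus) for Piwil4 and chr11:4441033-4441332 (minus) for Hormad2.
Sycp1: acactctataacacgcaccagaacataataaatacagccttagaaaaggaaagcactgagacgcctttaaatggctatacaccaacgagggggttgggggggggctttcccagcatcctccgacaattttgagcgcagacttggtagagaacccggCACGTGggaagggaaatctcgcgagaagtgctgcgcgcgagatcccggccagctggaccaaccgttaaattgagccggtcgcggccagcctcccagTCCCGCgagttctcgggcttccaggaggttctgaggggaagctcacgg
Brdt: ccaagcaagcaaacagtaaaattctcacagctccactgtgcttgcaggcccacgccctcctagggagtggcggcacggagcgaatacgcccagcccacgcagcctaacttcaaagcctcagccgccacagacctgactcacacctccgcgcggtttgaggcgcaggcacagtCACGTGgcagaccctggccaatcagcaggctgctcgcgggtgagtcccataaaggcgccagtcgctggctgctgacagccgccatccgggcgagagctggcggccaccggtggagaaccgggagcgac
Mael: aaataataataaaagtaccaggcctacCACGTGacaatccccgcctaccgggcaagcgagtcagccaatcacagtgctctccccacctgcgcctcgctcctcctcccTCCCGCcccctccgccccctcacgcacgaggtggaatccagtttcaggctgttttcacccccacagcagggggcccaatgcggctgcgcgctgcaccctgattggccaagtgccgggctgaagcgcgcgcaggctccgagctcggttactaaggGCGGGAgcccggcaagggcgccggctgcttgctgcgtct
Dazl: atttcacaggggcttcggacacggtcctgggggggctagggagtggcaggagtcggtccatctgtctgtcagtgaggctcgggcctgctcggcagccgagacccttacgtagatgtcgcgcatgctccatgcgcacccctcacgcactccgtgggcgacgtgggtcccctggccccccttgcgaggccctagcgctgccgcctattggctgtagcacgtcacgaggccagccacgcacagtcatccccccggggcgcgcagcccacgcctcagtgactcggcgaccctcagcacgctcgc
Piwil4: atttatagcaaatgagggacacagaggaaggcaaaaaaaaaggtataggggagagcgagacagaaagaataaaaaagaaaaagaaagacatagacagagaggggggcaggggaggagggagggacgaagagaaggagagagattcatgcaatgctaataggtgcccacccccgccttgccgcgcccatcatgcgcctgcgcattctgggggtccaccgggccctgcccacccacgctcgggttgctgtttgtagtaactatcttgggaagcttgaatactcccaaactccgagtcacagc
Hormad2: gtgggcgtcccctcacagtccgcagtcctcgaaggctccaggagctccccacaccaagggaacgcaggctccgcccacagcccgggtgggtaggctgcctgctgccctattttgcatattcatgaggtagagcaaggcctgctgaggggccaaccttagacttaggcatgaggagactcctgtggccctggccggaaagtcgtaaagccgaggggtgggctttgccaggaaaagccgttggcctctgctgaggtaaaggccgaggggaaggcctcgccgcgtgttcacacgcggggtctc
Sycp1 held 1 CACGTG and 1 TCCCGC, Brdt 1 CACGTG, and Mael 1 CACGTG with 2 matches of TCCCGC or its complement. The Dazl, Piwil4 and Hormad2 windows held none of these letters, which says nothing of the factors.

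A promoter window was found for 34 of the 40 genes and none for Meiob, Piwil2, Spo11, Tdrd6, Tex11 and Tex15. Where a gene had several, the one nearest to its annotated start was used. CACGTG was in 16 of the 34 windows (47.1%), against 7.15% of all 32851 windows of the same length and 7.84% of the 21263 windows of protein-coding genes. TCCCGC, on either strand, was in 17 (50%), against 20% of all windows and 25.8% of those of protein-coding genes. Both were in 9 (26.5%), against 1.99% and 2.67%. The median number of CpG dinucleotides was 19.5 (4 to 48), against 7 in all windows and 13 in those of protein-coding genes. CACGTG and TCCCGC each hold a CpG, and the windows compared were not matched for CpG number. The part of CpG content in these shares was not tested. Split by the mean of both responses, CACGTG was in 8 of 11 windows of genes called higher, 3 of 7 of genes called lower and 4 of 15 of genes not called. TCCCGC was in 5, 4 and 7 of the same windows. These shares are descriptions of small sets and carry no test.

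The mean of both responses averages D3 minus D1 and D10 minus D8 in the same fit, and so uses all 8 libraries. By it, 12 of the 38 genes were higher at the close of the exposures, 8 were lower and 18 did not pass. The background was again high, with 30.4% of all tested genes called (16.3% higher and 14.2% lower), against 52.6% of the germline genes, a list chosen with earlier results known. The split was 12 higher and 8 lower, and 8 higher and 14 lower with the offsets for GC content and length. At the first exposure, as given above, those offsets also raised the share called over all tested genes. For the mean that share is not given here, so the split with the offsets lacks a background from the same fit. The called total of 20 was 13 without D1 replicate 2 and 13 without D3 replicate 2.

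**Figure D2:**
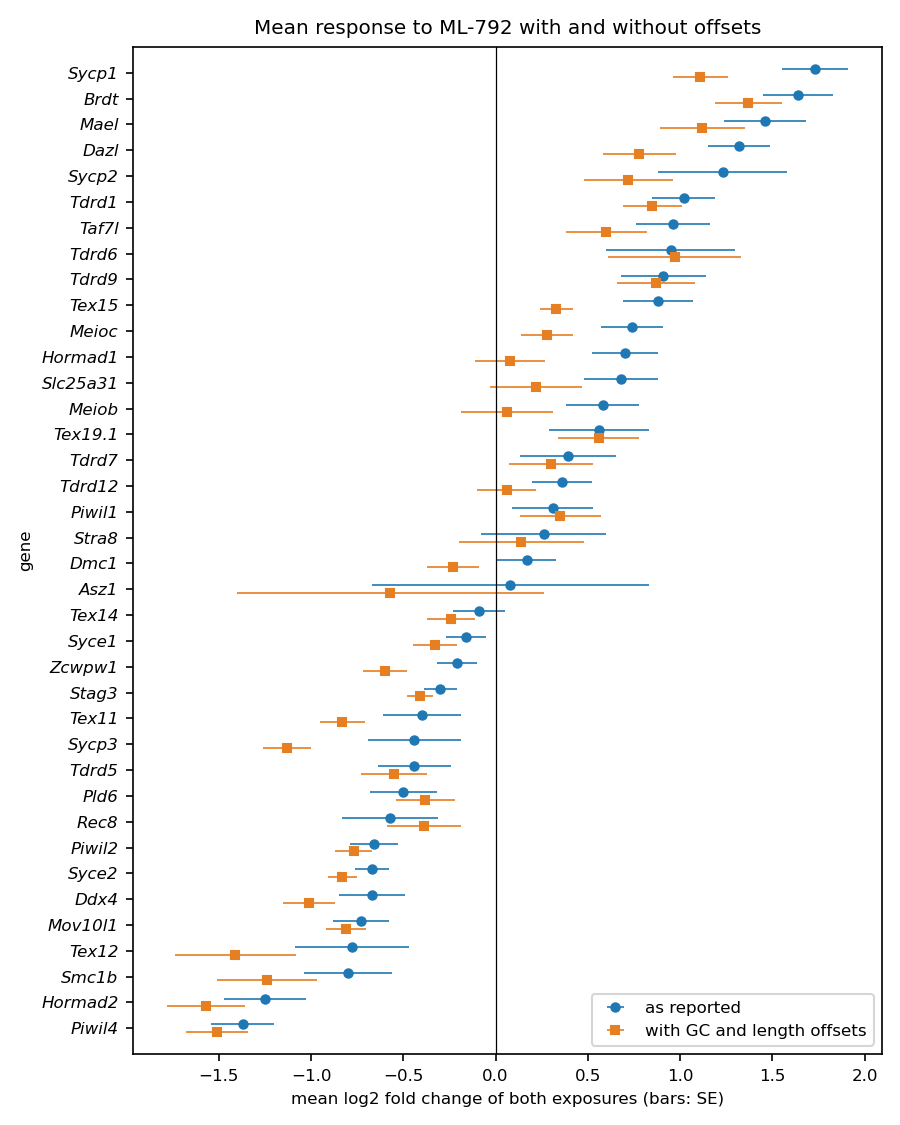
Mean log2 fold change of both exposures (horizontal axis, bars are SE) of the 38 tested germline genes (vertical axis, ordered by value). Blue circles are the values as reported and orange squares those with offsets for GC content and exon length; Sycp1, at 1.73 and 1.11, and Piwil4, at -1.37 and -1.51, stand near the ends under both.

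Of the 6 synaptonemal complex genes, 2 rose by the mean response, 1 fell and 3 did not pass. Beside Sycp1 and Syce2, this adds Sycp2, a lateral element gene, with 4.25 and 5.75 CPM at D3, against 3.30 and 2.08 CPM at D1, and 6.2 and 3.47 CPM at D10, against 2.42 and 0.869 CPM at D8. Its groups did not overlap in either exposure, and its mean response was 1.23 ± 0.35 (adjusted p = 0.029), or 0.72 with the offsets (0.034). It missed the threshold without D1 replicate 2, D3 replicate 2, D8 replicate 2 or D10 replicate 1 (adjusted p 0.051 to 0.11). Syce1 had 28.8 and 28.8 CPM at D3, against 33.9 and 31.3 CPM at D1, and 19.6 and 20.6 CPM at D10, against 24.4 and 19.8 CPM at D8, and did not pass (-0.16 ± 0.11, adjusted p = 0.32). Sycp3, of the lateral element, was at -0.44 ± 0.25 (adjusted p = 0.22), and Tex12, of the central element, at -0.78 ± 0.31 (0.090). With the offsets Sycp3 was called at -1.13 (0.00028), Tex12 at -1.41 (0.0081) and Syce1 at -0.33 (0.042). Sycp3 shares 660 exonic bases, 52.2% of its exon length, with Chpt1 on the other strand, so its reads are uncertain.

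None of the 3 meiotic cohesin genes passed at either exposure alone, and by the mean response 2 of the 3 fell. Smc1b had 9.05 and 18.4 CPM at D3, against 18.5 and 24.6 CPM at D1, and 7.34 and 11.2 CPM at D10, against 18.6 and 17.5 CPM at D8 (mean response -0.80 ± 0.24, adjusted p = 0.033). Stag3 had 94.2 and 107.1 CPM at D3, against 115.0 and 121.9 CPM at D1, and 86.9 and 100.8 CPM at D10, against 121.2 and 121.3 CPM at D8 (-0.30 ± 0.09, adjusted p = 0.040). In both genes the ML-792 libraries lay below the control libraries of each exposure, narrowly so for Smc1b at the first. Both calls turn on single libraries. Smc1b missed the threshold without D1 replicate 2, D3 replicate 1 or D10 replicate 1 (adjusted p 0.082 to 0.12) and Stag3 without either D1, either D3 or the first D10 library (0.062 to 0.17). Stag3 was also at 0.055 in DESeq2 and 0.061 without the filter on low counts. Rec8, which holds sister chromatids together until they part, was at -0.57 ± 0.26 (adjusted p = 0.13).

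Of the 7 tested genes of the chromosome axis and recombination, 2 rose by the mean response, 1 fell and 4 did not pass. Tex15, which acts in DNA repair and in transposon silencing, had 53.8 and 58.4 CPM at D3, against 30.8 and 25.6 CPM at D1, and 76.9 and 49.5 CPM at D10, against 45.9 and 28.5 CPM at D8. Its groups did not overlap in either exposure, and it passed at the first (0.99 ± 0.27, adjusted p = 0.042), not at the second (0.76 ± 0.26, 0.082), and in the mean (0.88 ± 0.19, 0.0082). With the offsets Tex15 was at 0.54 (0.018), 0.13 (0.52) and, in the mean, 0.33 (0.017). The first call was lost without any 1 of the D1 and D3 libraries (0.13 to 0.23). Hormad1, the axis partner of Hormad2, went the other way from it. It had 28.7 and 35.5 CPM at D3, against 22.3 and 27.4 CPM at D1, and 21.3 and 21.5 CPM at D10, against 13.3 and 7.63 CPM at D8, and passed at the second exposure (1.03 ± 0.26, adjusted p = 0.029) and in the mean (0.70 ± 0.18, 0.019). With the offsets its mean response was 0.08 (adjusted p = 0.76), and its second response missed the threshold without D8 replicate 2, D10 replicate 1 or D10 replicate 2 (0.089 to 0.1), as its mean response did without D1 replicate 1 or D3 replicate 2 (0.083 and 0.078). Meiob, which binds single-stranded DNA at meiotic breaks, was at 0.58 ± 0.20 (adjusted p = 0.057) and the recombinase gene Dmc1 at 0.17 ± 0.16 (0.48), or -0.23 with the offsets. The crossover gene Tex11 was at -0.40 ± 0.21 (0.19) and the histone reader gene Zcwpw1 at -0.21 ± 0.11 (0.18), and the offsets called the last pair lower, at -0.83 (0.00086) and -0.60 (0.0036). Zcwpw1 shares 8.2% of its exon length with Pilra on the other strand.

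**Figure D3:**
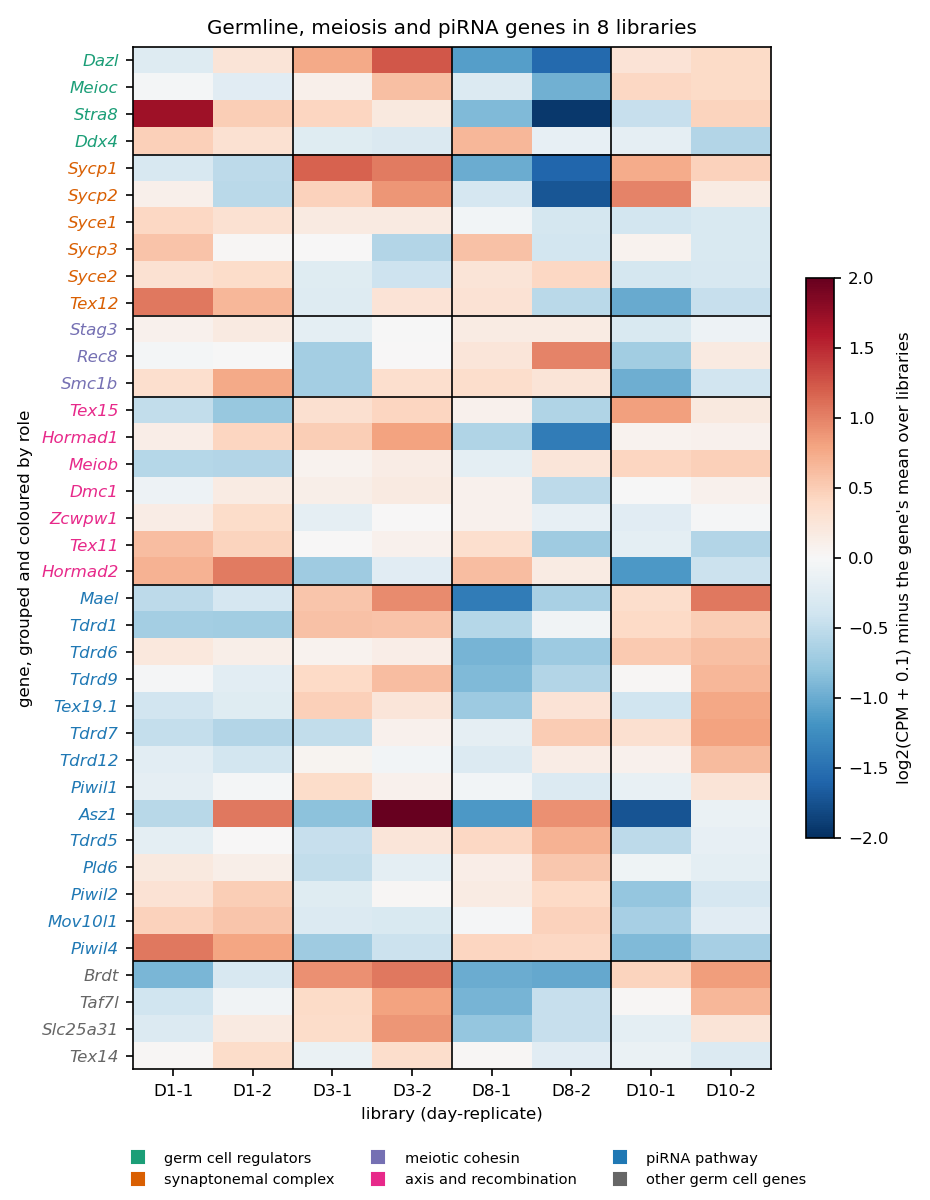
Level of the 38 tested germline genes (rows, grouped by role) in each of the 8 libraries (columns, day and replicate), as log2(CPM + 0.1) minus the gene's mean over libraries, with the colour scale clipped at 2 in each direction. Red blocks at D3 and D10 beside blue at D1 and D8 mark genes such as Sycp1 and Brdt, the reverse marks Piwil4 and Hormad2, and Asz1 follows the replicate number instead.

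The 14 piRNA pathway genes divided, with 3 higher by the mean response, 3 lower and 8 that did not pass. The genes that rose were Mael and a pair of Tudor-domain scaffolds. Tdrd1 had 9.39 and 9.26 CPM at D3, against 3.83 and 3.79 CPM at D1, and 8.19 and 8.75 CPM at D10, against 4.15 and 5.89 CPM at D8. Its groups did not overlap, with a response of 1.29 ± 0.24 at the first exposure (adjusted p = 0.011), lost without any 1 of the D1 and D3 libraries (0.055 to 0.089), and 0.75 ± 0.23 at the second (0.056). Tdrd9, which joins a Tudor domain to a helicase, had 2.82 and 3.31 CPM at D3, against 2.10 and 1.83 CPM at D1, and 2.15 and 3.42 CPM at D10, against 1.11 and 1.38 CPM at D8. It passed at the second exposure (1.17 ± 0.33, adjusted p = 0.042), a call lost in 7 of the 8 fits that leave out 1 library (0.071 to 0.22), and in the mean (0.91 ± 0.23, 0.018), lost without D1 replicate 2, D3 replicate 2 or D10 replicate 2 (0.066 to 0.075).

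The piRNA genes that fell were 2 of the 3 PIWI genes and a helicase. Beside Piwil4, Piwil2 had 35.0 and 42.3 CPM at D3, against 50.7 and 58.5 CPM at D1, and 24.2 and 32.8 CPM at D10, against 46.7 and 54.7 CPM at D8. The groups did not overlap, with -0.50 ± 0.19 at the first exposure (adjusted p = 0.12), -0.83 ± 0.19 at the second (0.020) and -0.66 ± 0.13 in the mean (0.0063). The second call was lost without D8 replicate 2 (0.061) or D10 replicate 1 (0.12). Mov10l1, the helicase that hands piRNA precursors to the pathway, had 24.3 and 23.7 CPM at D3, against 40.5 and 42.9 CPM at D1, and 18.4 and 25.1 CPM at D10, against 28.7 and 40.5 CPM at D8. It was lower in every ML-792 library than in the controls of its exposure, with -0.79 ± 0.21 (adjusted p = 0.039) and -0.67 ± 0.21 (0.059), and -0.73 ± 0.15 in the mean (0.0063). The first call was lost without any 1 of the D1 and D3 libraries (0.11 to 0.19). Piwil1, the PIWI gene of late male meiosis, was at 0.31 ± 0.22 (0.34) and had 28 to 78 reads per library.

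Other piRNA genes did not pass by the mean response. Tex19.1 had 97.8 and 83.7 CPM at D3, against 54.4 and 59.8 CPM at D1, and 53.3 and 120.1 CPM at D10, against 42.5 and 85.1 CPM at D8, with the groups overlapping at the second exposure (0.56 ± 0.27, adjusted p = 0.16). Tdrd6 was called at the second exposure alone, with 0.446 and 0.475 CPM at D10, against 0.0981 and 0.129 CPM at D8 (1.99 ± 0.51, adjusted p = 0.031), from 20 reads or fewer per library. It had 0.295 and 0.313 CPM at D3, against 0.335 and 0.311 CPM at D1, so both D8 libraries were the lowest of the 8. That call was lost whichever of the 8 libraries was left out (0.060 to 0.12) and in DESeq2 (0.15). Tdrd5, Tdrd7, Tdrd12 and the mitochondrial nuclease gene Pld6 lay between -0.50 and 0.39. With the offsets Tdrd5 was called lower, at -0.55 in the mean (0.035) and -0.98 at the second exposure (0.021). Asz1, which anchors the piRNA machinery at mitochondria, differed between replicates more than between groups. Its replicates 1 and 2 had 1.22 and 12.4 CPM at D3, 1.48 and 4.75 CPM at D1, 0.608 and 2.02 CPM at D10, and 0.949 and 4.28 CPM at D8.

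Of 4 germ cell regulators, 2 rose by the mean response and 1 fell. Beside Dazl, Meioc, which lets germ cells enter and hold meiotic prophase, had 50.2 and 71.3 CPM at D3, against 45.8 and 40.1 CPM at D1, and 62.4 and 61.5 CPM at D10, against 38.6 and 24.1 CPM at D8. It passed at the second exposure (0.98 ± 0.24, adjusted p = 0.026), a call lost without D8 replicate 2, D10 replicate 1 or D10 replicate 2 (0.080 to 0.098), and in the mean (0.74 ± 0.17, 0.011), where the offsets gave 0.28 (0.13) and the value without D1 replicate 2 or D3 replicate 2 also missed (0.052 and 0.051). Ddx4, the germ cell helicase also called VASA, had 26.8 and 26.0 CPM at D3, against 44.4 and 39.3 CPM at D1, and 28.1 and 21.2 CPM at D10, against 50.1 and 28.2 CPM at D8. It passed in the mean alone (-0.67 ± 0.18, adjusted p = 0.025), and in 5 of the 8 fits that leave out 1 library it did not (0.055 to 0.067, without D1 replicate 1, D1 replicate 2, D3 replicate 1, D3 replicate 2 or D10 replicate 2). Stra8, the retinoic acid target that starts meiosis, had 11.0 and 9.33 CPM at D3, against 26.6 and 11.4 CPM at D1, and 5.88 and 11.1 CPM at D10, against 4.38 and 2.06 CPM at D8. Its libraries were lower at D3 than at D1 and higher at D10 than at D8, and neither response passed (-0.90 ± 0.47, adjusted p = 0.26, and 1.41 ± 0.49, 0.086).

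Of the 4 remaining genes 3 rose by the mean response. Beside Brdt, Taf7l, an X-linked partner of the general transcription factor TFIID, had 12.0 and 16.1 CPM at D3, against 6.93 and 8.73 CPM at D1, and 9.40 and 14.6 CPM at D10, against 4.81 and 6.66 CPM at D8. It passed at the second exposure (1.07 ± 0.29, adjusted p = 0.038), a call lost in 7 of the 8 leave-one-out fits (0.055 to 0.19), and in the mean (0.96 ± 0.20, 0.0084), which was 0.60 with the offsets (0.054). Slc25a31, the ADP/ATP carrier of spermatocytes, had 9.01 and 12.9 CPM at D3, against 5.74 and 7.92 CPM at D1, and 6.04 and 8.34 CPM at D10, against 4.02 and 5.02 CPM at D8. The groups of both genes did not overlap in either exposure, and Slc25a31 passed in the mean alone (0.68 ± 0.20, adjusted p = 0.035). It missed the threshold with the offsets (0.52) and without D1 replicate 1, D1 replicate 2, D3 replicate 2, D8 replicate 1 or D10 replicate 2 (0.051 to 0.15). Tex14, which builds the bridges between germ cells, had 63.6 and 88.9 CPM at D3, against 70.4 and 89.2 CPM at D1, and was at -0.09 ± 0.14 in the mean (0.68).

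**Figure D4:**
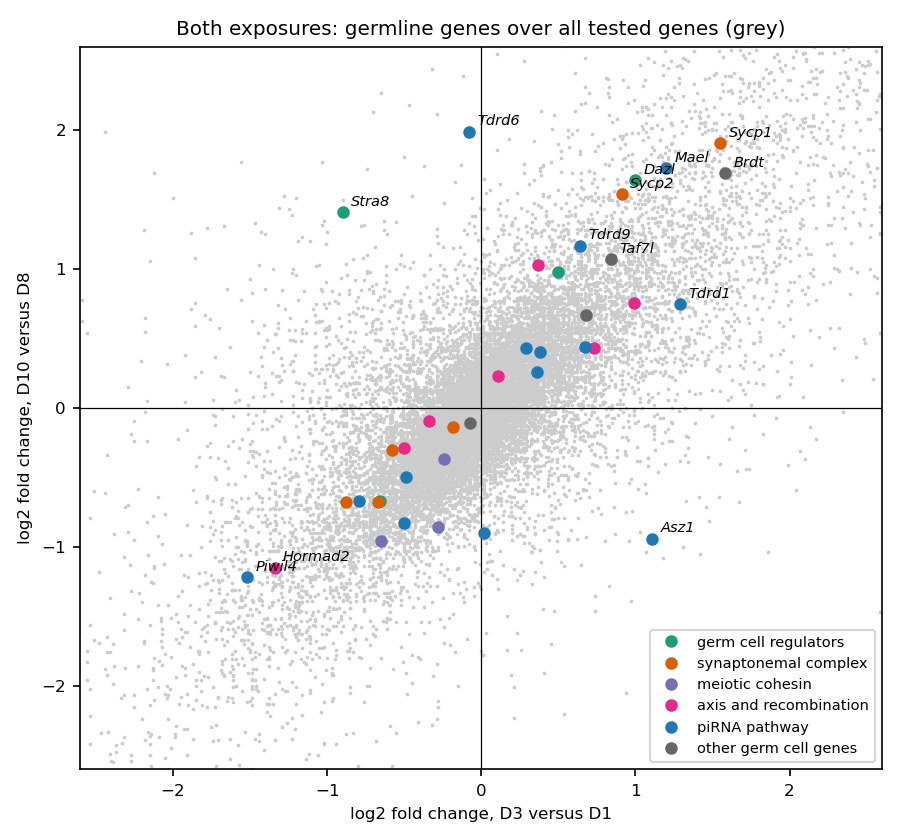
Log2 fold change at the second exposure (D10 versus D8, vertical axis) against that at the first (D3 versus D1, horizontal axis) for the 38 tested germline genes, coloured by role, over all tested genes in grey; 1058 genes with a value beyond 2.6 in either direction are not drawn. Most germline genes lie along the rising diagonal within the grey cloud, from Piwil4 to Sycp1, and Stra8, Tdrd6 and Asz1 lie off it.

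D8 was compared with D1 to ask what remained after withdrawal, and edgeR called 0 of the 38 genes, beside 0.177% of all tested genes (0.141% higher and 0.0365% lower). At an unadjusted p under 0.05 in edgeR there were 9 (2 higher and 7 lower), beside 2311 of all 19173 tested genes. DESeq2 called 3 lower, Dazl, Hormad1 and Stra8, and its share over all genes is not given here. Dazl had 27.3 and 19.8 CPM at D8, against 49.0 and 69.9 CPM at D1 (-1.34 ± 0.24, edgeR adjusted p = 0.094). Hormad1 had 13.3 and 7.63 CPM at D8, against 22.3 and 27.4 CPM at D1 (-1.25 ± 0.26, 0.15), and Stra8 had 4.38 and 2.06 CPM at D8, against 26.6 and 11.4 CPM at D1 (-2.56 ± 0.51, 0.13). In these 3 genes both D8 libraries were below both D1 libraries, and the D8 replicate 2 library, which stood apart in its GC trend, was the lowest of the 8. Without that library the edgeR log2 fold changes were -1.13 for Dazl, -0.90 for Hormad1 and -2.11 for Stra8. Because D8 lay below D1 for Dazl, its level of 70.4 and 76.3 CPM at D10 compares with 49.0 and 69.9 CPM at D1, a comparison that was not tested. Second response minus first response was called by edgeR for 0 of the 38 genes and for 0% of all tested genes, and by DESeq2 for 0 of the 38. At an unadjusted p under 0.05 in edgeR there were 3, beside 575 of all 19173 tested genes. They were Stra8 at 2.31 ± 0.68, Tdrd6 at 2.06 ± 0.70 and Tdrd5 at -0.92 ± 0.40 (adjusted p = 1 for each).

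Other germline genes, 57 by name and 49 of them tested, had 1 higher and 3 lower between D3 and D1 and 2 higher and 3 lower between D10 and D8. Those are 8.16% and 10.2%, below the 13.0% and 16.9% of all tested genes. By the mean response 24.5% were called, beside 30.4% of all tested genes. Dpep3, a testis membrane dipeptidase, rose at both exposures, to 8.84 CPM at D3, against 1.32 CPM at D1, and to 8.44 CPM at D10, against 1.24 CPM at D8 (2.69 ± 0.65, adjusted p = 0.030, and 2.76 ± 0.65, 0.023). Ankrd31, which helps to place meiotic breaks, rose at the second (1.47 ± 0.35, adjusted p = 0.024). The crossover gene Cntd1 fell at both (-1.91 ± 0.32, adjusted p = 0.0078, and -1.61 ± 0.30, 0.0099), as did Hsf2bp, a partner of BRCA2 in meiosis (-0.82 ± 0.19, 0.026, and -0.80 ± 0.19, 0.024). Mei4, of the break machinery, fell at the first (-1.08 ± 0.28, 0.038) and Mcmdc2, of break repair, at the second (-1.84 ± 0.40, 0.017).

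Known repressors of germline genes were called about as often as all genes or less. Of 24, 2 were higher and 0 lower between D3 and D1, and 3 were higher and 1 lower between D10 and D8, or 8.33% and 16.7%, beside 13.0% and 16.9% of all tested genes. By the mean response 5 were higher and 2 lower (29.2%, beside 30.4%). Atf7ip, the cofactor of SETDB1, averaged 223.2 CPM at D3, against 59.8 CPM at D1, and 258.3 CPM at D10, against 65.3 CPM at D8. Dnmt3a, a de novo DNA methyltransferase gene, averaged 318.4 CPM at D3, against 108.2 CPM at D1, and 360.8 CPM at D10, against 82.8 CPM at D8. Yaf2, of the PRC1 family, rose at the second exposure (0.77 ± 0.19, adjusted p = 0.027), and Zfp42, the pluripotency gene also called Rex1, fell there (-0.59 ± 0.16, 0.038). In the mean alone, Dnmt3l, the cofactor of the de novo methyltransferases, rose by 0.69 ± 0.19 (adjusted p = 0.022) and the histone methyltransferase gene Ehmt1 by 0.35 ± 0.09 (0.015), while its partner Ehmt2 fell by 0.53 ± 0.12 (0.0096). For the PRC1.6 genes E2f6, Mga, L3mbtl2 and Pcgf6 the mean responses were 0.28, -0.34, -0.25 and -0.29, and none passed (adjusted p 0.051 to 0.28).

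Markers of other cell states moved in the same libraries. All 10 markers of the 2-cell-like state, a rare state of stem cell cultures with genes of the 2-cell embryo, rose at both exposures, with a summed level of 850.1 to 2749 CPM at D3, against 47.1 to 94.2 CPM at D1, and 596.9 to 613 CPM at D10, against 7.23 to 13.5 CPM at D8. Zscan4c, the best known of them, averaged 432.5 CPM at D3, against 18.6 CPM at D1. Of 10 primordial germ cell markers, 0 were higher and 3 lower between D3 and D1, and 1 was higher and 4 lower between D10 and D8. Their summed level was 234 to 246.4 CPM at D3, against 305 to 305.4 CPM at D1, and 219.4 to 276.7 CPM at D10, against 300.9 to 377.6 CPM at D8, with none at 0. Prdm1, which starts the germ cell programme in the embryo, fell by 2.93 ± 0.43 on the log2 scale at the first exposure and by 3.05 ± 0.42 at the second (adjusted p = 0.0048 and 0.0031), and Dppa3, also called Stella, did not pass (adjusted p = 0.25 and 0.99). The 7 endoderm markers summed to 29.5 to 44.1 CPM at D3, against 17.9 to 23.0 CPM at D1, and to 103 to 117.9 CPM at D10, against 118.4 to 172 CPM at D8. The part of these cell states in the responses of the germline genes was not tested, and in bulk RNA fewer cells of a type and less RNA per cell cannot be told apart.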

How the data were processed

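The authors deposited raw counts, whole reads per Ensembl gene with no normalization, for 8 libraries of 21040992 to 40835518 reads. Per the submitters' processing notes, bcl2fastq 2.17.1.14, STAR 2.5.0a and featureCounts were used with build mm10. Its annotation, strand and multi-mapping settings: not given in the sources used here. Symbols, exon lengths and coordinates came from GENCODE M21 (GRCm38) for 36901 of 36920 identifiers. Genes were kept by edgeR's filterByExpr and scaled by TMM. 1 quasi-likelihood model of the 4 groups (edgeR 4.0.16, R 4.3.3) left 4 residual degrees of freedom, with biological variation (BCV) at 19.6%. Tests were 2-sided, with Benjamini-Hochberg adjustment over 19173 genes. The SE is the log2 fold change divided by the square root of F. The procedure was tested on simulated counts.

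The members and lists were chosen with earlier results of these data known. Values are given in every library for genes called in any comparison or among the 5 highest per length. Of other germline genes, the 3 largest called rises and falls per exposure are named. Of the repressors, all called ones are named, and Zscan4c, Pou5f1 and Dppa3 whatever their value, with some further genes chosen after their values were seen. Counts of 0 were read against a floor of 3 reads per library, and floors cover counting error only, since without molecular identifiers several reads can come from 1 molecule. Alternatives were RLE size factors, DESeq2 1.42.0, other filters, each library left out, a replicate block, and offsets for GC content and length.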

Additional observations from a re-analysis of the deposited data

How the results depend on the processing

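With a replicate block, the second exposure had 24 called germline genes (14 higher and 10 lower) against 13 as reported, and D8 versus D1 had 3 against 0. Without the filter on low counts there were 21 and 3, and 2 for the difference of responses against 0. At the first exposure the replicate block raised the share of all tested genes called from 13.0% to 21.8%. For the other comparisons the share of all tested genes called in the alternative fits is not given here. Their counts therefore do not set the germline genes apart from other genes. DESeq2 gave 3 for D8 versus D1. Leaving out 1 library in turn gave 0 to 11 for the first exposure, 6 to 13 for the second, 0 to 4 for D8 versus D1, 13 to 23 for the mean and 0 to 0 for the difference. The replicate numbers of the labels name no shared culture or day, and with 2 numbers they were not used as pairs. The deviations of same-numbered libraries correlated at 0.101 to 0.498 over the 6 pairs of groups. Of the 19173 tested genes, 12 had every replicate 2 library at least 1 log2 unit above replicate 1 of its group, Asz1 among them. For 3 genes every replicate 2 library was at least 1 log2 unit below. RLE size factors and the filter at 1 CPM in at least 2 libraries kept each of the 5 counts within 1.5 times. The cause of each move was not tested. Under at least 1 alternative the sign turned for 6 of the 38 genes at the first exposure, 10 at the second, 11 for D8 versus D1, 4 in the mean and 21 for the difference, none of them called as reported and none called in the fit that turned it. In the mean, Dmc1 was at -0.23 with the offsets, where Asz1 was at -0.57, and Asz1 was at -0.08 with the replicate block. With 1 library left out in turn, the mean ranged from -1.17 to 0.78 for Asz1, -0.04 to 0.59 for Stra8 and -0.23 to 0.01 for Tex14. Asz1 ranged from -1.39 to 2.20 at the first exposure and from -3.22 to 0.44 for the difference, positive there and negative at the first exposure without D3 replicate 2. At the second exposure, Sycp3 ranged from -0.74 to 0.25, Tex11 from -0.76 to 0.32 and Zcwpw1 from -0.24 to 0.03, with a positive value without D8 replicate 1 in each and, for Zcwpw1, also 0.02 without D10 replicate 1. At 2 libraries a group, leaving out 1 leaves a lone sample, assumed to vary like the other groups.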
